A study of Mus musculus with 10 samples.

Results

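The genes described here belong to the peptide system that drives gonadotropin-releasing hormone (GnRH) neurons and to the steroid receptors that feed back on it, in the hypothalamus of mice carrying the C26 colon adenocarcinoma. The list held 9 genes: Kiss1, Tac2, Tacr3, Tac1, Tacr1, Gnrh1, Esr1, Pgr and Npvf. A gene was measured through a probe set that the platform annotation pairs with that gene alone, and 8 of the 9 had one, each with 1 probe set, of 18820 genes with such a probe set in all. Kiss1, which encodes kisspeptin, was the exception. Its single probe set is also paired with Golt1a and lay at 3.79 to 4.13 on the log2 scale in tumour-bearing mice and at 3.79 to 4.05 in controls, below the detection level used here on all 8 individual arrays, and no value is given to Kiss1 from it. All 8 measured genes were above that level, a linear signal of 20, on all 8 individual arrays and were tested, among 12978 tested genes.

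The animals were male CDF1 mice, a hybrid of BALB/c and DBA/2, aged 10 to 11 weeks. The 5 tumour-bearing mice had been injected under the skin of the flank with 1000000 C26 cells in 0.2 ml of salt solution, and the 3 controls with 0.2 ml of the solution alone. The hypothalamus was taken from all of them on day 20, and each RNA was hybridised to its own whole-transcript array. A further 2 arrays held RNA pooled from 5 tumour-bearing and from 4 control mice, which may or may not be the same animals. The samples are labelled hypothalamus and are bulk tissue. Fewer cells of a type, less RNA per cell and a different share of neighbouring tissue in the dissected piece cannot be told apart. Levels are the authors' RMA values on the log2 scale, and differences are tumour-bearing minus control.

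In the arcuate nucleus of the rodent hypothalamus, neurons that make kisspeptin also make neurokinin B (encoded by Tac2) and dynorphin, and neurokinin B acting on its receptor (Tacr3) makes these neurons fire together and release kisspeptin onto GnRH neurons. Substance P, from Tac1, acts mainly on Tacr1 and also excites kisspeptin neurons, while the RFamide peptide from Npvf (RFRP-3) restrains the axis. Oestradiol, through the oestrogen receptor (Esr1), lowers arcuate Kiss1 and Tac2 and raises Pgr, the progesterone receptor gene. Males carry the same circuit, with testosterone acting in part after its conversion to oestradiol.

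The promoters of the 3 genes with an unadjusted p under 0.05 below, Tac2, Tacr3 and Tacr1, are shown as a description. No link between their letters and the differences was tested. They are the 250 bases before the annotated start, from RefSeq on GRCm38.p6, all on the plus strand: chr10:127724228-127724477 for Tac2, chr3:134828757-134829006 for Tacr3 and chr6:82402225-82402474 for Tacr1. Capitals mark the letters TATAAA of a TATA box and TGACG, the short core of the cyclic AMP response element, on either strand.
Tac2: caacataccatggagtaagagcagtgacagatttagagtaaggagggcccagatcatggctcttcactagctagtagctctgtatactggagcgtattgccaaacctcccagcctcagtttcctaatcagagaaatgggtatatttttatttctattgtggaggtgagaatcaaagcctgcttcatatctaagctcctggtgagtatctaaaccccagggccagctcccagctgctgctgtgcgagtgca
Tacr3: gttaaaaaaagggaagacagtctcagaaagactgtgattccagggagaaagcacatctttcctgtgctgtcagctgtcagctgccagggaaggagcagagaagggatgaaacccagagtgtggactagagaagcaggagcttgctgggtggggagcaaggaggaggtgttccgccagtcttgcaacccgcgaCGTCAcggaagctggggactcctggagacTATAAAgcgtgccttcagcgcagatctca
Tacr1: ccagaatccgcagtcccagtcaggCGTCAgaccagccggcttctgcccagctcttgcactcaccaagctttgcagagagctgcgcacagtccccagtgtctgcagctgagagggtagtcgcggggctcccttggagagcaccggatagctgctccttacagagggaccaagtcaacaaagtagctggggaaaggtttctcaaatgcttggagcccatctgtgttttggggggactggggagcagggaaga

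Tacr3 held TATAAA, 29 bases before the start, and TGACG on the opposite strand, with its first base 58 before the start. Tacr1 held TGACG on the opposite strand, 226 bases before the start, and Tac2 held neither. Among 32851 mouse promoter windows of the same length, 12.4% held TATAAA and 17.8% held TGACG on either strand. The oestrogen response element was searched as a palindrome, GGTCA followed after any 3 bases by TGACC, found in 0.0639% of windows, and as the single arm GGTCA on either strand, found in 35.2%. The palindrome contains the arm on both strands. A window was at hand for 7 of the 8 measured genes, not for Gnrh1. Neither pattern was present in the windows of those 7, while the window of Kiss1 held the single arm 2 times. A match is a run of letters and not a known site, and these windows do not show what lies outside them.

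None of the 8 genes passed the threshold of 0.05 for the adjusted p, whether higher or lower (0 of 8, limma with Benjamini-Hochberg adjustment over 22837 probe sets), against 0.0771% of tested genes. At an unadjusted p under 0.05 there were 3 of 8, Tac2, Tacr3 and Tacr1, against 10.3% of all tested genes (2 higher and 1 lower among the members, against 3.78% and 6.51%). The groups did not overlap for 2 of 8, against 8.3% of tested genes. These were Tac2 and Tacr1, both with every tumour-bearing mouse above every control, an arrangement found in 3.11% of tested genes. No member had every tumour-bearing mouse below every control, which held for 5.19% of tested genes. The differences of 6 members were above 0 and those of 2 were below, with a median of 0.11 against -0.01 over all tested genes. The median size, sign aside, was 0.16 for the members and 0.06 over all tested genes. The list was drawn up with earlier results of these arrays known, so these shares describe the genes and do not test them as a group.

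**Figure D1:**
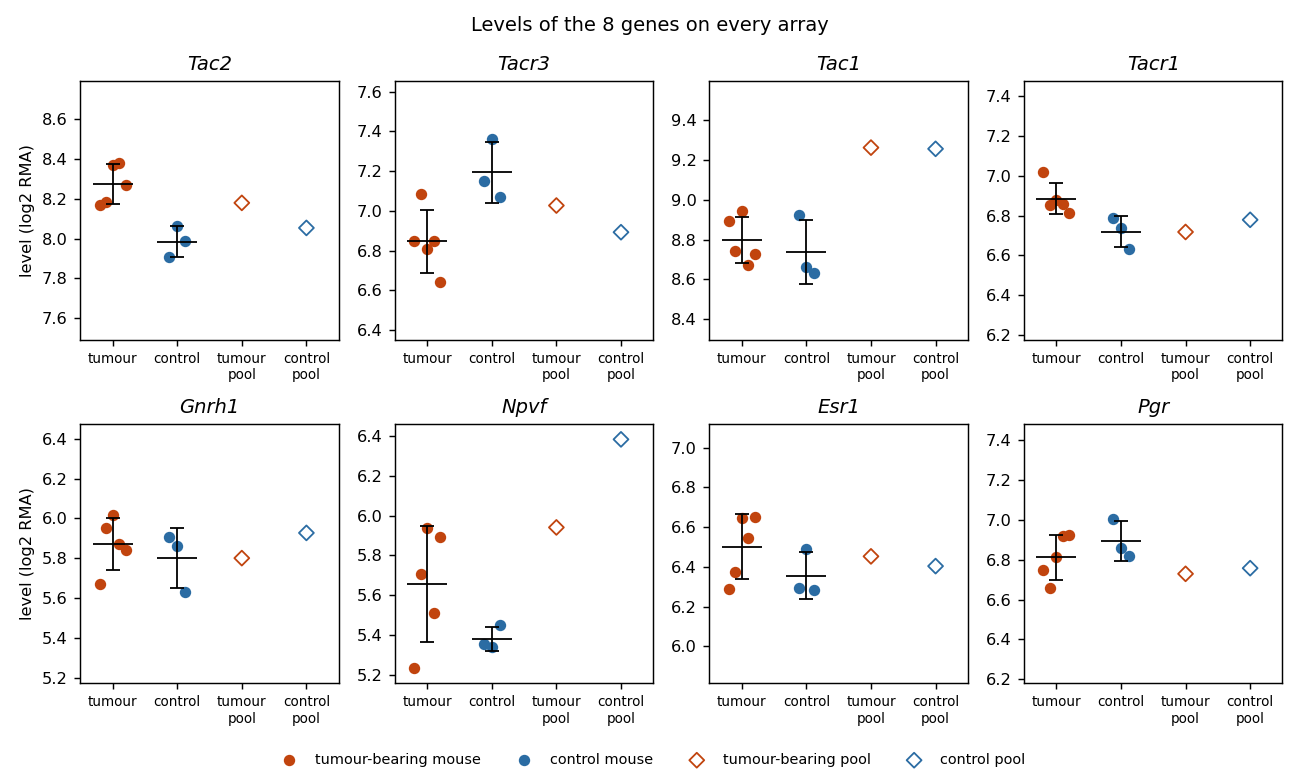
Level of each measured gene on every array (log2 RMA, one panel per gene, each spanning the same range of log2 units), with filled points for individual mice, bars for the mean and SD (5 tumour-bearing and 3 control mice) and open diamonds for the 2 pools. The individual groups separate for Tac2 and Tacr1, and both pools lie above all individual mice for Tac1 and Npvf.

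Tac2, the neurokinin B precursor (probe set 10367024), read 8.17, 8.19, 8.37, 8.38 and 8.27 in tumour-bearing mice 1 to 5, against 7.91, 8.06 and 7.99 in controls 1 to 3. The 2 groups were fully separate, tumour-bearing above control, with a gap of 0.11 between the lowest of the one group and the highest of the other. The means were 8.28 ± 0.10 (SD, n = 5) in tumour-bearing mice and 7.99 ± 0.08 (SD, n = 3) in controls, a 1.22-fold difference (95% interval 1.11 to 1.35, not adjusted for the number of genes). On the log2 scale this was 0.29 ± 0.06 SE with limma adjusted p = 0.214, so the separation of the groups did not survive adjustment over all probe sets. Of all tested genes, 4.11% had a larger difference in either direction. The tumour-bearing pool, at 8.18, also lay above the control pool, at 8.05. The difference ranged from 0.25 to 0.33 with any 1 mouse left out.

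Tacr3, the neurokinin B receptor (probe set 10496192), read 6.85, 7.08, 6.81, 6.85 and 6.64 in tumour-bearing mice 1 to 5, against 7.15, 7.36 and 7.07 in controls 1 to 3. Here 4 of 5 tumour-bearing mice lay below every control, and mouse 2 lay just above control 3. The means were 6.85 ± 0.16 (SD, n = 5) in tumour-bearing mice and 7.19 ± 0.15 (SD, n = 3) in controls, with a log2 difference of -0.35 ± 0.10 SE (limma adjusted p = 0.304). It was the largest difference among the 8 genes in either direction, a fold of 0.787 (95% interval 0.672 to 0.921), and 2.59% of tested genes had a larger one. The pools went the other way, at 7.03 for tumour-bearing and 6.89 for control mice. The ligand and its receptor thus had differences of opposite sign in the individual mice and of the same sign in the pools, and a test of one against the other was not made.

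Tac1, which encodes substance P and neurokinin A (probe set 10536363), read 8.89, 8.74, 8.94, 8.67 and 8.73 in tumour-bearing mice 1 to 5, against 8.93, 8.66 and 8.63 in controls 1 to 3. The groups overlapped throughout, with a difference of 0.06 ± 0.08 SE (95% interval -0.13 to 0.24, limma adjusted p = 0.865). Control 1 lay apart from the other two controls. Leaving out controls 1, 2 and 3 in turn gave differences of 0.15, 0.02 and 0.0029, and leaving out tumour-bearing mice 1, 3 and 4 in turn gave 0.03, 0.02 and 0.09.

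Tacr1, the receptor for substance P (probe set 10539244), read 7.02, 6.85, 6.88, 6.86 and 6.81 in tumour-bearing mice 1 to 5, against 6.79, 6.74 and 6.63 in controls 1 to 3. Every tumour-bearing mouse lay above every control, but the gap between mouse 5 and control 1 was only 0.03. The means were 6.88 ± 0.08 (SD, n = 5) in tumour-bearing mice and 6.72 ± 0.08 (SD, n = 3) in controls, 1.12-fold (95% interval 1.01 to 1.24), and the log2 difference was 0.17 ± 0.07 SE (limma adjusted p = 0.426). The pools did not share this order, at 6.72 for tumour-bearing and 6.78 for control mice. The tachykinin receptors Tacr1 and Tacr3 therefore had differences of opposite sign, while Tac1 and Tac2 were both above 0.

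Gnrh1, the GnRH precursor (probe set 10416169), is made by a small number of scattered neurons whose cell bodies lie mainly in the preoptic area, at the front edge of a hypothalamic dissection. It read 5.67, 5.95, 6.02, 5.87 and 5.84 in tumour-bearing mice 1 to 5, against 5.91, 5.86 and 5.63 in controls 1 to 3. Each group had 1 low animal, tumour-bearing mouse 1 and control 3. The difference was 0.07 ± 0.10 SE (limma adjusted p = 0.866), and its 95% interval of -0.16 to 0.30 holds changes of up to 1.23-fold upward and to 0.893 times the control level. Its sign turned to -0.02 without control 3, and it was 0.12 on leaving out control 1, 0.12 on leaving out tumour-bearing mouse 1 and 0.03 on leaving out mouse 3 of that group. The pools read 5.80 for tumour-bearing and 5.93 for control mice.

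Npvf, the precursor of RFRP-3 (probe set 10544704), read 5.24, 5.71, 5.94, 5.51 and 5.89 in tumour-bearing mice 1 to 5, against 5.36, 5.34 and 5.45 in controls 1 to 3. Tumour-bearing mice 2 to 5 lay above every control, and mouse 1 lay below every control. The spread was wide in tumour-bearing mice (SD 0.29, n = 5) and narrow in controls (SD 0.06, n = 3), and 2.35% of tested genes had a larger SD among the tumour-bearing mice, where the median over tested genes was 0.09. The means of 5.66 in tumour-bearing mice and 5.38 in controls differed by 0.28 ± 0.16 SE (95% interval -0.08 to 0.63, limma adjusted p = 0.584). The pools read 5.94 for tumour-bearing and 6.38 for control mice, a difference of -0.44, opposite to the individual mice and larger. With the pools added as samples the difference was 0.07.

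**Figure D2:**
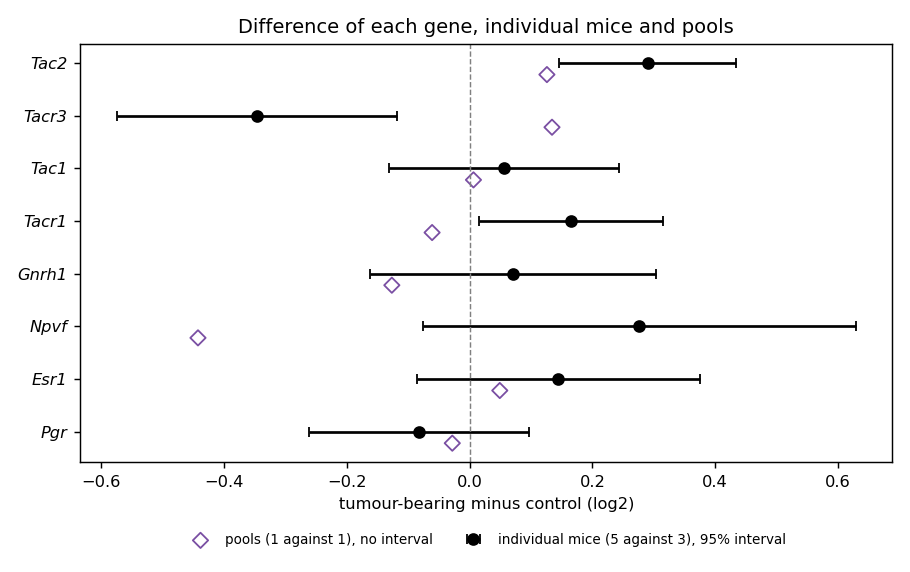
Tumour-bearing minus control difference of each measured gene on the log2 scale, as filled points with 95% intervals for the individual mice (5 against 3) and as open diamonds for the pools (1 against 1, with no interval). The intervals of Tac2, Tacr3 and Tacr1 leave out 0, and the pool difference has the opposite sign for Tacr3, Tacr1, Gnrh1 and Npvf.

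Esr1, the oestrogen receptor gene (probe set 10367600) read 6.29, 6.37, 6.65, 6.55 and 6.65 in tumour-bearing mice 1 to 5, against 6.29, 6.49 and 6.29 in controls 1 to 3. Tumour-bearing mice 3, 4 and 5 lay above every control and the other two lay within the control range. The difference was 0.14 ± 0.10 SE (95% interval -0.09 to 0.38, limma adjusted p = 0.669), 1.11-fold. Leaving out mice 3 and 4 brought it to 0.08. Pgr (probe set 10583179), a target of Esr1, read 6.75, 6.66, 6.81, 6.92 and 6.92 in tumour-bearing mice, against 7.01, 6.86 and 6.82 in controls. For Pgr, 3 of 5 tumour-bearing mice lay below every control, and the difference was -0.08 ± 0.08 SE (95% interval -0.26 to 0.10, limma adjusted p = 0.773), or -0.03 and -0.04 on leaving out control 1 or tumour-bearing mouse 2. The pools differed by 0.05 for Esr1 and by -0.03 for Pgr, in the same direction as the individual mice.

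In the pools, which have no replicate, 4 of the 8 members differed in the same direction as the individual mice (Tac2, Tac1, Esr1 and Pgr), or 50.0%, against 60.9% of all tested genes. Both pools lay above all 8 individual mice for Tac1, at 9.26 for each pool, and for Npvf. Over all tested genes both pools lay above the individual arrays in 13.0% and below them in 11.8%, so the pooled arrays stand apart from the individual ones. The labels give no reason for it.

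The genes whose levels followed a member most closely were taken for the 2 members whose range over the 8 individual arrays exceeded 0.5, Tacr3 and Npvf, by the root mean square difference of the centred log2 values over those 8 arrays. For Tacr3, which itself deviated from its mean by 0.21 (root mean square), the nearest of the tested genes were Slco1c1, a thyroid hormone transporter gene of brain endothelium (0.05 apart), Pde8a, a cyclic AMP phosphodiesterase gene (0.07), and Ado, a thiol dioxygenase gene (0.07). Their own differences were -0.35, -0.36 and -0.36. For Npvf, which deviated by 0.25, the nearest were Fezf1, a transcription factor gene of the ventromedial hypothalamus (0.08 apart), Bsx, a transcription factor gene of arcuate and dorsomedial neurons (0.09), and Lrat, the retinol acyltransferase gene (0.09). Fezf1 was lowest among tumour-bearing animals in mouse 1 (7.89) and highest in mice 3 and 5 (8.39 and 8.41), and Bsx was likewise lowest in mouse 1 (5.89) and highest in mice 3 and 5 (6.37 and 6.40). These are the closest of 12978 genes by choice, and they share the arrays and the dissected pieces with the members.

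**Figure D3:**
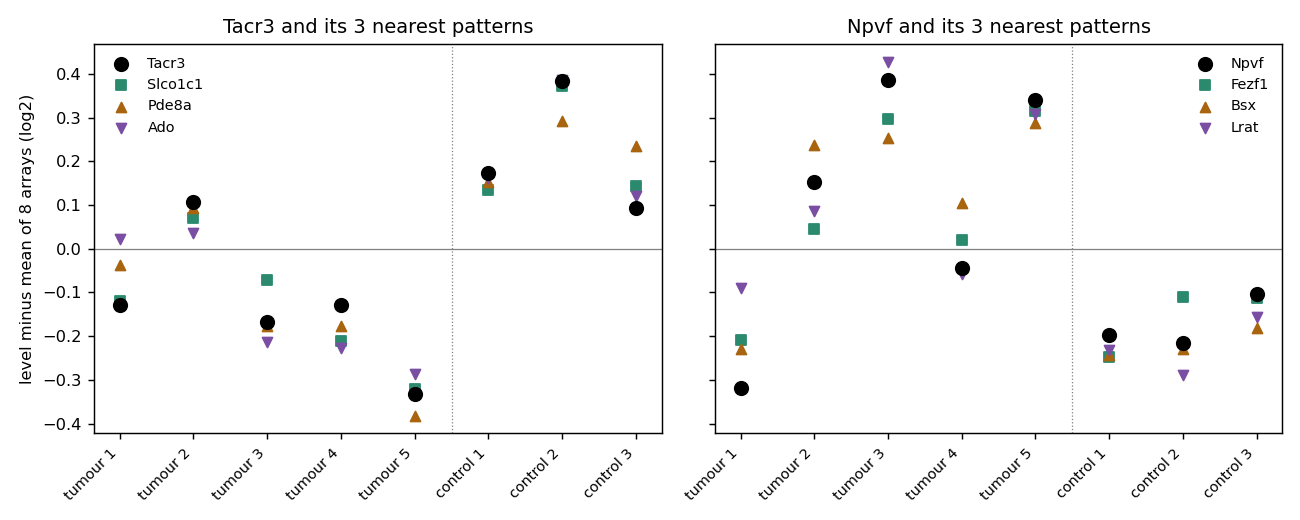
Centred level (level minus the mean of the 8 individual arrays, log2) of Tacr3 and of Npvf on each individual array, with their 3 nearest genes each, and tumour-bearing mice left of the dotted line. Tacr3 and its neighbours are lowest in tumour-bearing mouse 5 and highest in control 2, while Npvf and its neighbours are higher in tumour-bearing mice 3 and 5 than in any control.

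Other genes of the circuit were taken as lists. Of 16 peptide, receptor and regulator genes that work with the members, 11 were tested and none passed in either direction (0 at an unadjusted p under 0.05). Their differences were above 0 for 9 and below for 2, with a median of 0.07. Kiss1r, the kisspeptin receptor gene, averaged 6.26 in tumour-bearing mice and 6.19 in controls, a difference of 0.07 ± 0.10 SE, and Pdyn, the dynorphin precursor gene, averaged 6.10 in tumour-bearing mice and 6.07 in controls, a difference of 0.03 ± 0.13 SE. These were added for their role after their values were seen. The largest differences on this list were those of the RFamide receptor genes Npffr2 (-0.17 ± 0.14 SE) and Npffr1, the receptor for RFRP-3 (0.16 ± 0.12 SE), and of Nhlh2, a transcription factor gene needed for normal fertility (-0.13 ± 0.11 SE). Single mice weighed on these values: Npffr1 was 0.02 on leaving out control 2 and 0.30 on leaving out control 3, Npffr2 was -0.07 on leaving out control 3 and -0.11 on leaving out tumour-bearing mouse 4, and Nhlh2 was -0.08 on leaving out control 1. Gnrhr, Tacr2, Tac4 and Mkrn3 were below the detection level on all individual arrays, and Prlr had no probe set paired with it alone.

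Genes needed for the birth or migration of GnRH neurons had differences of both signs. Of 14 listed, 11 were tested, with 6 above 0, 5 below and a median of 0.0011, and none passed (1 at an unadjusted p under 0.05). Otx2, a homeobox gene that activates Gnrh1, differed by -0.44 ± 0.20 SE, Sema3e, a guidance cue gene, by -0.39 ± 0.13 SE with every tumour-bearing mouse below every control, and Six6, a hypothalamic homeobox gene, by 0.23 ± 0.16 SE. The limma adjusted p of these genes was 0.481, 0.372 and 0.680. For Sema3e the gap between the groups was only 0.02, and 5.19% of tested genes had this arrangement. Otx2 was -0.29 on leaving out tumour-bearing mouse 5, Sema3e -0.25 on leaving out control 3 and Six6 0.09 on leaving out control 1. Prok2 was below the detection level on all individual arrays.

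Of 15 further steroid receptor and coregulator genes, 10 were tested, with 4 above 0, 6 below, a median of -0.04 and none past the threshold (2 at an unadjusted p under 0.05, 1 in each direction). Esrrg, an orphan receptor gene related to the oestrogen receptors, had the largest difference, -0.54 ± 0.19 SE (limma adjusted p = 0.382). It averaged 6.42 ± 0.26 (SD, n = 5) in tumour-bearing mice and 6.96 ± 0.40 (SD, n = 3) in controls, and the groups overlapped. The membrane oestrogen receptor gene Gper1 differed by -0.20 ± 0.12 SE and the mineralocorticoid receptor gene Nr3c2 by -0.20 ± 0.10 SE. On leaving out control 1, Gper1 was -0.30 and Nr3c2 -0.12, on leaving out control 2, Gper1 was -0.12, and on leaving out control 3, Esrrg was -0.36. Esr2, the second oestrogen receptor gene, was below the detection level on all individual arrays.

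Of 13 genes listed for sex steroid synthesis and metabolism, 5 were tested, Hsd17b4, Hsd17b10, Hsd17b12, Star and Hsd11b1. All 5 differences were below 0, with a median of -0.08 and none past the threshold (1 at an unadjusted p under 0.05). Hsd11b1, whose enzyme regenerates active glucocorticoid and not a sex steroid, read 4.81, 5.04, 5.00, 4.64 and 5.07 in tumour-bearing mice, against 5.37, 5.32 and 5.44 in controls. Every tumour-bearing mouse lay below every control, as in 5.19% of tested genes, and the difference was -0.47 ± 0.12 SE (limma adjusted p = 0.277). The pools had the same order, at 4.80 for tumour-bearing and 5.16 for control mice. Star, which brings cholesterol into mitochondria for steroid synthesis, differed by -0.11 ± 0.14 SE and Hsd17b12 by -0.08 ± 0.07 SE. Star was -0.04 on leaving out control 1 or tumour-bearing mouse 4 and -0.16 on leaving out control 3, and Hsd17b12 was -0.13 on leaving out control 1 and -0.05 on leaving out tumour-bearing mouse 1. Cyp19a1, the aromatase gene, had no probe set paired with it alone. Cyp11a1, Cyp17a1, Hsd17b1 and Akr1c14 were below the detection level on all individual arrays, so the tested genes leave these steps unmeasured.

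**Figure D4:**
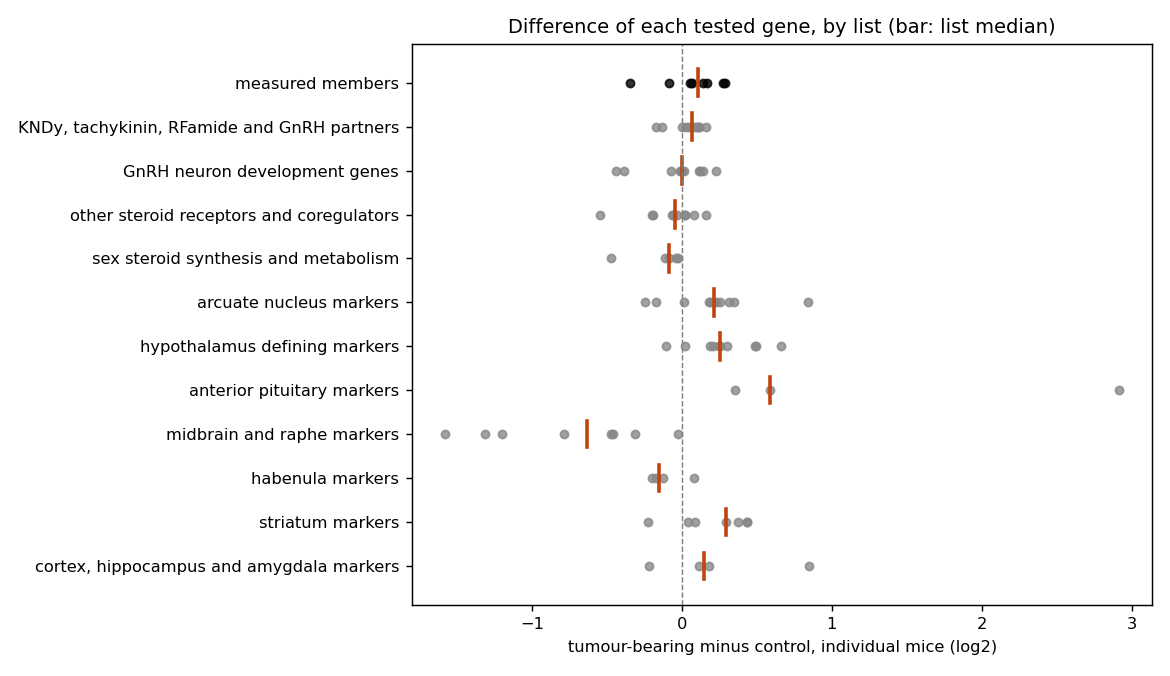
Tumour-bearing minus control difference (log2, individual mice) of each tested gene, a point per gene and a row per list, with a bar at the list median. The medians lie at 0.11 for the measured members, -0.63 for midbrain and raphe markers and 0.25 for hypothalamus defining markers.

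Marker genes of the hypothalamus and of neighbouring tissue were set beside these values. The 10 defining markers of the hypothalamus were all tested and 9 of them were above 0 (median 0.25, none past the threshold, 4 higher at an unadjusted p under 0.05), led by Oxt (0.66 ± 0.18 SE), Avp (0.50 ± 0.07 SE) and Trh (0.49 ± 0.09 SE). Oxt was 0.42 on leaving out control 1. Their summed linear signal was 3803 to 4808 in tumour-bearing mice and 3472 to 3855 in controls. The arcuate markers, where the Tac2 neurons of the kisspeptin circuit lie, were above 0 for 9 of 11 tested (median 0.22, none past the threshold, 4 higher at an unadjusted p under 0.05), with sums of 3293 to 4579 in tumour-bearing mice and 3009 to 3318 in controls. The largest differences were those of Npy (0.84 ± 0.23 SE), Bsx (0.35 ± 0.12 SE) and Hmx3 (0.31 ± 0.18 SE, or 0.49 and 0.12 on leaving out control 1 or control 3), and Nr5a2 was below the detection level on all arrays. The 2 arcuate markers below 0 were Cartpt (-0.24 ± 0.14 SE) and Pomc (-0.17 ± 0.09 SE). Sst, the brightest arcuate marker at means of 11.11 in tumour-bearing mice and 10.88 in controls, weighed most in the arcuate sums. The part of these markers in the Tac2 and Npvf differences was not tested.

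All 8 tested midbrain and raphe markers were below 0 (median -0.63, none past the threshold, 6 lower at an unadjusted p under 0.05), with Slc6a3, Slc6a4 and Chrna6 at -1.58, -1.31 and -1.20. Slc6a4 read 3.78 in control 1, within the range of 3.56 to 4.34 in tumour-bearing mice, and 6.45 and 5.93 in controls 2 and 3, and its difference was -2.12 on leaving out control 1 and -0.78 on leaving out control 2. Of the 10 markers with a probe set, none was below the detection level on all arrays, but some were near it. Slc6a4 was above that level on 4 of the 8 individual arrays, just so in tumour-bearing mice 2 and 3 (4.34 and 4.33) and clearly in controls 2 and 3. The size of its difference thus rests on controls 2 and 3, set against values near or below that level. Tph2 and Pitx3 were above it on 2 individual arrays each and were not tested. Their summed signal was 898, 1667, 490, 910.0 and 949.7 in tumour-bearing mice 1 to 5, against 1693, 2034 and 1943 in controls, so the groups did not overlap. Midbrain dopamine neurons of rodents also express Tacr3. Tumour-bearing mouse 2 had the highest Tacr3 level and the highest midbrain sum of its group, whereas the lowest Tacr3 level was in mouse 5 and the lowest midbrain sum in mouse 3. In the pools the midbrain sums were 1405 for tumour-bearing and 1562 for control mice, while Tacr3 was higher in the tumour-bearing pool. The part of midbrain tissue in the Tacr3 difference was not tested.

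Of the habenula markers, 1 of 4 tested was above 0 and 3 were below (median -0.15, none past the threshold, 2 lower at an unadjusted p under 0.05), with Nwd2 at -0.20, Chrna3 at -0.17 (-0.09 on leaving out control 3) and Lrrc55 at -0.13. Their sums were 346 to 390 in tumour-bearing mice and 389 to 414 in controls, and the defining genes Gpr151 and Pou4f1 were below the detection level on all individual arrays. The habenula is another site of Tac2 and Tac1 expression in mice. Of the striatum markers, a tissue rich in Tac1, 6 of 7 were above 0 (median 0.30, none past the threshold, 2 higher and 1 lower at an unadjusted p under 0.05), led by Ppp1r1b (0.44 ± 0.38 SE), Gpr6 (0.43 ± 0.13 SE) and Pde10a (0.37 ± 0.18 SE). On leaving out tumour-bearing mouse 1, Ppp1r1b was 0.09 and Pde10a 0.22. Their sums were 1860 to 2567 in tumour-bearing mice and 1817 to 1922 in controls, and 2709 in the tumour-bearing pool against 2076 in the control pool. The high Tac1 level of both pools stood beside a striatal sum above every individual animal in only the tumour-bearing pool. The cortex, hippocampus and amygdala markers had 3 of 4 above 0 (median 0.15, none past the threshold, 1 higher at an unadjusted p under 0.05), with Tbr1 at 0.85, Slc17a7 at -0.22 (-0.55 to 0.03 with any 1 mouse left out), Neurod1 at 0.18 (0.08 to 0.33 likewise) and sums of 166 to 243 in tumour-bearing mice and 163 to 257 in controls. Neurod6 was below the detection level on all individual arrays. Tbr1, the 1 higher gene, was above that level in every tumour-bearing mouse (4.44 to 5.21) and below it in every control (4.02 to 4.17). It was thus tested only through the group in which it was high. The part of these tissues was not tested.

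Pituitary transcripts were high in tumour-bearing mice 3 and 4, with summed signals of 1887 and 1908, against 184 to 242 in the other tumour-bearing mice and 133 to 285 in controls. The sum was also high in the tumour-bearing pool, 1286 against 307 in the control pool. Cga had another pattern, reading 7.71 in control 1 and 7.83 in the control pool, beside 7.88 and 7.80 in tumour-bearing mice 3 and 4. Gh read 10.45 and 10.48 in these 2 mice, and the pituitary list, 3 genes tested (Gh, Cga and Lhb, differing by 2.91, 0.59 and 0.36), had none past the threshold (0 at an unadjusted p under 0.05). With any 1 mouse left out Cga ranged from 0.29 to 1.09, without control 3 and without control 1, and Lhb from 0.17, without control 3, to 0.49. Tshb was below the detection level on all individual arrays. Mice 3 and 4 also had the highest Tac2 levels. Without these 2 mice Tac2 differed by 0.22 (limma adjusted p = 0.445), Tacr3 by -0.33 (limma adjusted p = 0.520) and Tacr1 by 0.18 (limma adjusted p = 0.584). The signs of Tac2 and Tacr1 could not change, because every tumour-bearing mouse lay above every control for both. The part of pituitary tissue in these differences was not tested.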

How the data were processed

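Hypothalamus RNA of 5 tumour-bearing and 3 control mice was measured on individual arrays, with 1 pool per group. The deposited values are log2 levels from the authors' RMA, per the submitters' processing notes. Version, probe set definition and build are not stated in the sources used here. A log2 scale was read from the spread of values and from the method. RMA sets arrays to a common distribution and compresses folds. Medians were 5.30 to 5.32 on individual arrays, 5.28 on the tumour-bearing pool and 5.27 on the control pool, and correlations between individual arrays were 0.980 to 0.989. Precision is limited by the number of arrays.

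Of 35556 probe sets, 21218 were paired with 1 gene, 1881 with several and 12457 are unnamed here; updating symbols by Entrez number changed 0. A gene was represented by its brightest probe set. Probe sets with a linear signal above 20 on at least 3 individual arrays were fitted with limma 3.58.1 in R 4.3.3 (intensity trend, with statmod 1.5.0 behind the robust setting) and Benjamini-Hochberg adjusted p over all 22837. The 95% intervals are not adjusted. The test was checked on simulated data. Of planted log2 changes of 0.5, 1 and 2 it recovered 44.6%, 87.3% and 98.6%, with 7 false calls. Changes as small as those of the members were not simulated. Members and lists were chosen with earlier results of these data known. Named were all members, the 3 tested genes of each list with the largest difference, and the 3 genes nearest in pattern to each member with a range above 0.5. Same-numbered mice did not deviate together (correlations of -0.0020, 0.0084 and 0.0089), so the replicate number is only an alternative. The alternatives were filters, variance models, array weights, quantile normalization, the replicate block, pools as samples, averaged probe sets, testing only probe sets with 1 gene, raising dim values, and leaving out each mouse or tumour-bearing mice 3 and 4. Python 3.11.15 with matplotlib 3.10.9 drew the figures.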

Additional observations from a re-analysis of the deposited data

Results flagged for a closer look

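None of the 8 measured members had a tumour-bearing animal standing far from the others of its group. Of 41 genes looked at, 4 list genes did, where chance gives about 5% of genes. The list genes had been chosen for a large difference, which 1 outlying animal can raise, so that rate does not strictly apply to them. Ppp1r1b read 7.47 in tumour-bearing mouse 1, with 5.86 in the nearest other tumour-bearing mouse. Pde10a read 8.46 in the same animal, with 7.69 in the nearest. Otx2 read 4.26 in tumour-bearing mouse 5, with 4.91 in the nearest. Hmx3 read 4.84 in tumour-bearing mouse 2, with 4.52 in the nearest. The controls, at 3 animals, are too few for this check.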

How the results depend on the processing

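Under the 20 alternatives none of the 8 members passed the threshold, and 7 kept their sign throughout. For Tac2 and Tacr1 leaving out mice could not change the sign, because their groups did not overlap. Gnrh1 ranged from -0.0155 (without control 3) to 0.12 over the individual mice left out in turn. The adjusted p of Tac2 was lowest, 0.0593, with averaged probe sets and highest, 0.747, with the replicate block. With the replicate block Tac2 differed by 0.26, Tacr3 by -0.28 and Tacr1 by 0.20, and Esr1 (0.08), Pgr (-0.15) and Tac1 (0.12) moved by over 1.5 times; the block left 0 of all tested genes past the threshold. With the pools as samples, Npvf differed by 0.07, Gnrh1 by 0.03 and Tac1 by 0.0052, and Gnrh1 differed by 0.02 without tumour-bearing mice 3 and 4. Star reversed to 0.0013 with the replicate block and Slc17a7, which ranged from -0.55 to 0.0341 with each mouse left out, did so without control 3.

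The count of all tested genes past the threshold was 10. It was 3 without the filter, 3 without the intensity trend, 17 with array weights, 76 with averaged probe sets, 68 with only probe sets of 1 gene, 0 without tumour-bearing mice 3 and 4, and 0 (without control 3) to 53 (without tumour-bearing mouse 2) with each mouse left out. The hypothalamus markers had 2 past it and the cortex markers 1, both with averaged probe sets and with only probe sets of 1 gene, where fewer probe sets are tested. With each mouse left out the hypothalamus markers had 0 to 2 and the midbrain markers 0 to 1. Other causes were not tested. Levels near the detection level limit what can be read for dim genes.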
